A study of Mus musculus with 9 samples.

Results

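The proteasome and immunoproteasome genes were followed in young erythroid cells sorted from mouse bone marrow, with and without the transcriptional corepressor TRIM28. The members are the genes whose single symbol in the authors' deposited table is Psma, Psmb, Psmc, Psmd or Psme followed by a number, 43 of 23285 genes, of which 41 were tested in every comparison. In the mutant cells labelled as modestly deleted (KOa), 10 members rose and 4 fell against the control, where 7.99% of all tested genes rose and 14.1% fell. In those labelled as severely deleted (KOb) 16 rose and 2 fell, where 12.8% of all tested genes rose and 15.2% fell. Most rises lay in the regulatory particle, the alpha ring and the PA28 cap, while the immunoproteasome subunit gene Psmb8 fell in both mutant populations. The catalytic subunit gene Psmb5 fell to 45.4% of the control in the first population, and the direct comparison of the mutants showed it 2.98-fold higher in the second. These calls rest on the deposited q. With the deposited statistic read as standard normal, 2 rises and the Psmb8 fall remained in KOa, and 1 rise and 0 falls in KOb. The Psmb5 fall in KOa was then not called, while its difference between the mutants was.

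RNA sequencing was done on 9 libraries in 3 groups of 3, all from C57BL/6 mice carrying floxed Trim28 alleles. The control, FFa, was TRIM28(flox/flox) without Cre and was sorted as CD71(hi)TER119+. KOa was TRIM28(flox/flox):Mx1Cre sorted through that same gate, and KOb was TRIM28(flox/flox):Mx1Cre sorted as CD71(hi)TER119-. The mutant mice received 5 poly(I:C) injections and were studied 2 weeks later. The labels leave unsaid whether FFa mice were injected too. The Mx1 promoter that drives Cre responds to interferon and is active in many cell types, so deletion need not be limited to erythroid cells. Degree of deletion and TER119 gate cannot be told apart in KOb, and neither can Mx1Cre and deletion in either mutant group. Separate mice are not named for the libraries within a group, so any spread between libraries behind the deposited p-values may be technical.

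The proteasome degrades proteins that carry ubiquitin chains. Its 20S core is a barrel of alpha and beta rings, with the proteolytic sites on Psmb5, Psmb6 and Psmb7, and the 19S particle recognises the substrate, removes the ubiquitin and threads the protein into the core. Interferon-gamma induces the immunoproteasome subunits Psmb8, Psmb9 and Psmb10, which replace Psmb5, Psmb6 and Psmb7 respectively and favour peptides for MHC class I, and it also induces the PA28 cap genes Psme1 and Psme2. Maturing erythroblasts remove much of their protein content as they become reticulocytes, and proteasomes take part in that removal.

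The values in the authors' deposited table are FPKM (fragments scaled to transcript length and to the mapped fragments of the library), 1 per gene and group. They carry no SD, and the depth of each library is unknown. A log2 ratio is followed by ± the standard error implied by the deposited test statistic. A gene counts as changed where its deposited q, adjusted over all genes and comparisons, is below 0.05. Trim28 itself had 26.0 FPKM in FFa, 6.64 in KOa and 4.76 in KOb, that is 25.5% and 18.3% of the control. Its ratio between the mutants, -0.48 ± 0.32, was not called (q = 0.0535). The defining erythroid genes Gata1 (118, 138 and 105 FPKM) and Klf1 (79.2, 80.6 and 62.0 FPKM) were well above 0 in FFa, KOa and KOb. The heme synthesis gene Alas2 fell in both mutants (2082, 1167 and 861 FPKM, q = 0.00405 in KOa and 0.000619 in KOb), and the anion exchanger gene Slc4a1 fell in KOb (867, 714 and 470 FPKM, q = 0.00161). Kit, an early progenitor gene, was at 0.399, 0.751 and 2.36 FPKM and rose in both. The sum of the 7 erythroid markers was at 67.5% of the control in KOa and 48.8% in KOb, and its part in the proteasome values was not tested. Most of that sum is Alas2 and Slc4a1, and 5 of the 7 markers were not called in KOa and 4 in KOb.

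Markers of leukocytes moved with the groups as well. All 9 B cell markers fell in both mutants, and their summed level was 233 FPKM in FFa, 21.2 in KOa and 19.8 in KOb. For granulocytes, 4 of 8 tested markers fell and 1 rose in KOa, 6 fell and 1 rose in KOb, and the sums were 48825, 16547 and 13394 FPKM. Of the 8 macrophage and monocyte markers 5 fell in KOa and all 8 in KOb, with sums of 370, 112 and 106 FPKM. Of the dendritic cell markers 6 of 7 tested fell in KOa and 7 of 8 in KOb, with sums of 125, 44.0 and 28.5 FPKM. Of the 8 T and NK cell markers 2 fell and 1 (Nkg7) rose in KOa, and of 7 tested in KOb 3 fell and Nkg7 rose, with sums of 19.98, 16.5 and 15.8 FPKM. Megakaryocyte markers went the other way, with 3 of 4 tested higher in both mutants and sums of 34.0, 67.8 and 54.5 FPKM. No marker in the table was at 0 in any group. In such sorted bulk samples fewer cells of a type and less RNA per cell cannot be told apart, and the part of these shifts in the proteasome values was not tested.

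Scaling bears on every direction given here. Globin genes took 64.6% of all FPKM in FFa, 76.3% in KOa and 53.3% in KOb. The total FPKM differed too, at 1.24e+06, 1.28e+06 and 6.59e+05, and the sums outside globin genes were 438557, 302378 and 308022. The shifts below follow from these last sums and not from the globin shares. The granulocyte markers (48825, 16547 and 13394 FPKM) are part of the sums outside globin genes, so this scale moves with them as well. Rescaling to the FPKM outside globin genes would add 0.54 to every log2 ratio of KOa to FFa, 0.51 to every ratio of KOb to FFa and -0.03 to every ratio of KOb to KOa. The median of all tested genes with at least 1 FPKM in either group lay at -0.07, 0.01 and 0.06 as deposited, so the ratios below are given on the deposited scale.

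The 41 tested members were all at 1 FPKM or more in each group. They ranged in FFa from 2.83 FPKM (Psmb9) over a median of 22.4 to 238 FPKM (Psme3), in KOa from 1.98 (Psmb8) over 28.9 to 252 FPKM (Psme3), and in KOb from 2.96 (Psmb8) over 32.7 to 182 FPKM (Psma2). Psma8, the alpha subunit of the testis, had 0, 0.0645 and 0.309 FPKM, and Psmb11, the beta subunit of the thymus cortex, had 0.0541, 0.189 and 0.0409 FPKM in FFa, KOa and KOb. Neither was tested. The sum over all members was 1445 FPKM in FFa and 1.18-fold higher in both mutants, at 1711 in KOa and 1707 in KOb. Without Psme3 the sums were 1207, 1460 and 1552 FPKM.

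**Figure D1:**
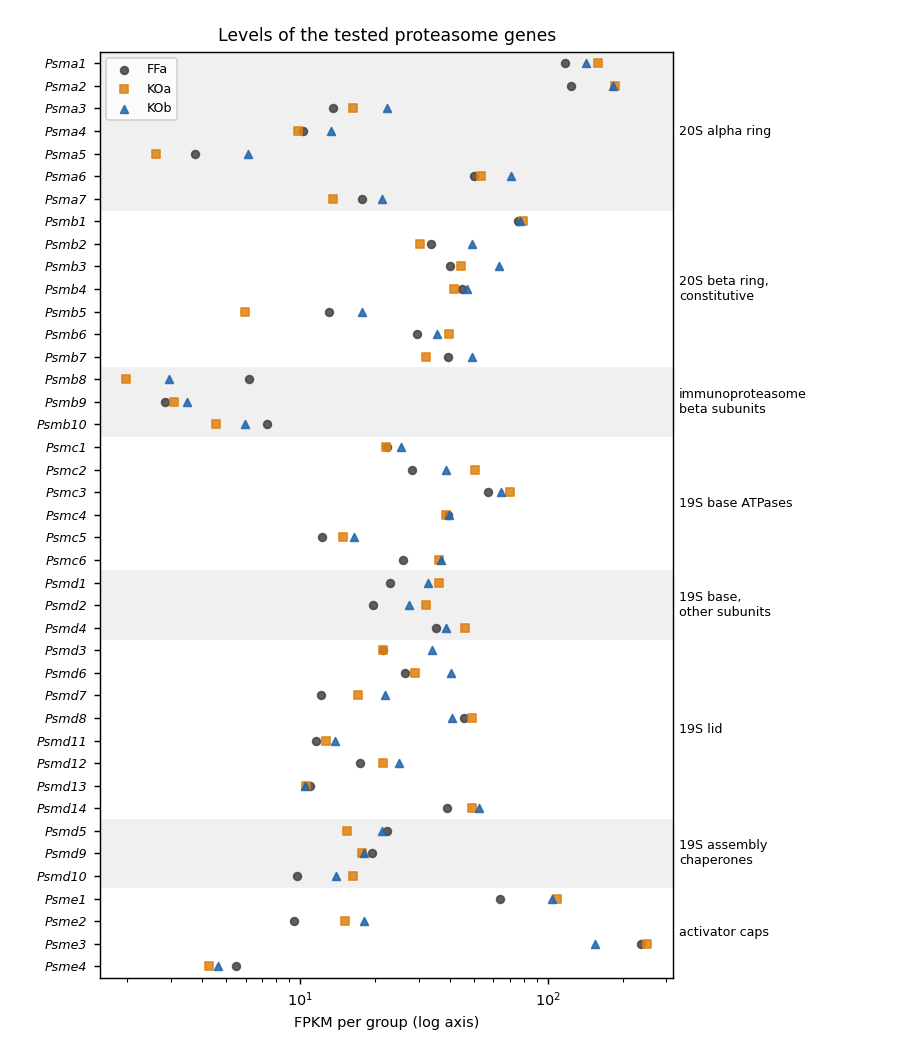
FPKM of the 41 tested proteasome genes on a log axis, 1 point per group, for FFa, KOa and KOb, ordered by role with shaded bands separating the roles. The 3 immunoproteasome genes sat low in every group, between 1.98 and 7.34 FPKM, while Psma1, Psma2 and Psme3 were the 3 highest in each group.

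Against FFa, 10 of 41 members (24.4%) were higher and 4 (9.76%) lower in KOa, where 7.99% of all 10761 tested genes were higher and 14.1% lower. In KOb 16 members (39.0%) were higher and 2 (4.88%) lower, where 12.8% of 10584 tested genes were higher and 15.2% lower. Both comparisons use the same control libraries. The median log2 ratio of the members was 0.12 in KOa and 0.38 in KOb. Proteasome genes are abundant, and among all genes with at least 10 FPKM in the higher group 13% were higher and 15.4% lower in KOa, and 15.2% and 21.3% in KOb. At that level 10 of 36 members were higher and 2 lower in KOa, and 15 of 36 were higher and 1 lower in KOb. At a q below 0.01, 6 members were higher and 2 lower in KOa, where 5.08% and 9.06% of tested genes were, and 8 higher and 2 lower in KOb, where 7.79% and 10.4% were. The deposited statistic was also taken as standard normal and adjusted over all results, called the normal reading here. For the tested members each deposited q was below the adjusted p of the normal reading. Some other genes went the other way, such as S100a8 in KOb (deposited q = 0.0486, normal reading 0.00198). Under the normal reading Psmc2 and Psme1 were higher and Psmb8 lower in KOa, where 2.52% of tested genes were higher and 4.96% lower. In KOb it left Psmd7 higher and no member lower, where 3.63% and 5.92% of genes were. Recentring the ratios on the median of all genes first gave 2 higher and 1 lower in KOa (2.81% and 4.4% of all genes) and 1 higher and none lower in KOb (3.54% and 6.06%).

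**Figure D2:**
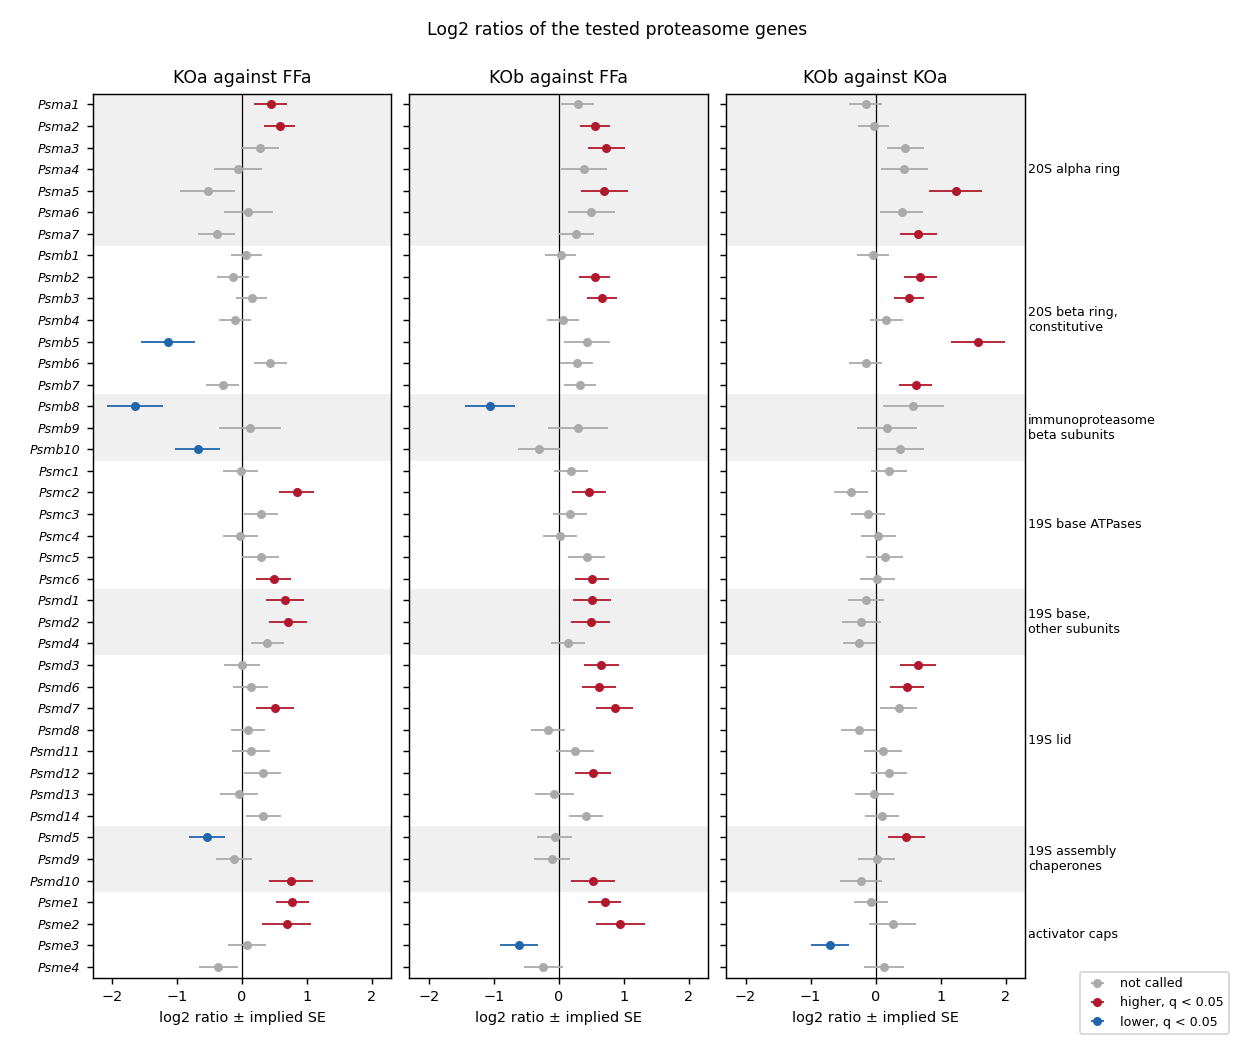
Deposited log2 ratios of the 41 tested genes with the implied standard error as bars, in 3 panels, each mutant against FFa and then KOb against KOa, with red and blue for q below 0.05. In KOa the constitutive core genes lay on both sides of 0, while in KOb all 14 tested were above 0.

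Sequences upstream of the members were searched for 3 sites that the regulators of proteasome genes are known to bind. They are the core of the antioxidant response element (TGACNNNGC, bound by NFE2L1 and NFE2L2), the STAT dimer site (TTCNNNGAA) and the interferon response element (GAAANNGAAA). RefSeq promoter windows of build GRCm38.p6, with 250 bases before and 50 after the start, were given for 36 members (39 windows) and not for Psma8, Psmb1, Psmb2, Psmb7, Psmc3, Psmd3 and Psmd7. Both strands were searched. The first site was in 6 of 39 windows (15.4%) and in 12.4% of all 32851, the second in 2 (5.13%) against 8.30%, and the third in 4 (10.3%) against 3.44%. Matches not printed were the antioxidant core in Psmd9 and Psme4 and the interferon element in Psmd4 and Psmd9. None of those genes was called in any comparison. The matches printed below were picked because the gene was called in at least 1, or is catalytic (Psmb6). The split between printed and unprinted genes therefore shows no link between site and change. Of the 41 tested members, 24 were called in at least 1 comparison. The first 4 windows below hold the antioxidant core, the next pair the STAT site and the last pair the interferon element. They are written 5′ to 3′ in the direction of the gene, with the match in capitals.
Psmb5: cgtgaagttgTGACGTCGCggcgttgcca
Psmb6: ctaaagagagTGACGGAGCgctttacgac
Psmc6: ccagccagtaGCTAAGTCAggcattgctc
Psmd12: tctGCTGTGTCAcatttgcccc
Psmb8: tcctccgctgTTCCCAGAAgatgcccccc
Psmd2: gcgcgtggccTTCTGGGAAaaggggcggt
Psmb3: cacagtgactTTTCACTTTCcgctttccat
Psme1: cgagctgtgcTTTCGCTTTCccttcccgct
They lie at chr14:54618024-54618052 on the minus strand (Psmb5) and, on the plus strand, at chr11:70525338-70525366 (Psmb6), chr14:45329587-45329615 (Psmc6), chr11:107479278-107479299 (Psmd12), chr17:34198088-34198116 (Psmb8), chr16:20651646-20651674 (Psmd2), chr11:97703261-97703290 (Psmb3) and chr14:55578493-55578522 (Psme1). In Psmc6, Psmd12, Psmb3 and Psme1 the motif reads on the strand opposite to the gene. A match is a string of letters, and binding was not measured.

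Counts by role here and below stand beside the shares of all tested genes. Those were 7.99% higher and 14.1% lower in KOa, and 12.8% and 15.2% in KOb. The alpha ring forms the gated entrance of the core. Of its 7 tested genes 2 rose in KOa and 3 in KOb, none fell, and the median log2 ratio was 0.10 and 0.50. Psma2, an outer-ring subunit, was at 124 FPKM in FFa, 186 in KOa and 182 in KOb. Both mutants lay above the control at nearly the same level, and the log2 ratio was 0.58 ± 0.24 in KOa (q = 0.00513) and 0.55 ± 0.23 in KOb (q = 0.00647). Psma1 stood at 117, 159 and 143 FPKM, and its rise passed the test in KOa (0.44 ± 0.25, q = 0.0469) but its ratio in KOb did not (0.29 ± 0.25, q = 0.223). Psma3 went stepwise from 13.5 over 16.3 to 22.4 FPKM and rose in KOb by 0.73 ± 0.29 (q = 0.00289), with a q of 0.339 in KOa. Psma5 was the least abundant of the tested alpha genes, at 3.76, 2.61 and 6.11 FPKM. It was lowest in KOa without passing the test (-0.53 ± 0.43, q = 0.187) and rose in KOb by 0.70 ± 0.37 (q = 0.0344). Psma4, Psma6 and Psma7 were not called against the control, with log2 ratios from -0.39 to 0.10 in KOa and from 0.27 to 0.50 in KOb.

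The constitutive beta ring carries the proteolytic sites. Of its 7 genes none rose and 1 fell in KOa, where the median log2 ratio was -0.10 (0.43 after rescaling to the FPKM outside globin genes), and 2 rose and none fell in KOb, with a median of 0.32. The gene that fell was Psmb5, the chymotrypsin-like subunit whose antioxidant core is printed above, on chromosome 14 at 54614120 to 54617995 of mm10. It had 13.1 FPKM in FFa, 5.95 in KOa and 17.7 in KOb, so that KOa stood apart below both other groups. Its log2 ratio in KOa was -1.14 ± 0.42 (q = 0.000619 in the authors' deposited table), and under the normal reading of the statistic the adjusted p was 0.0825. In KOb the ratio was 0.44 ± 0.35 (q = 0.122). Exons of Psmb5 overlap the microRNA gene Mir686, and a pseudogene copy (Psmb5-ps) is annotated, so reads may be shared.

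Psmb6, the caspase-like subunit, had 29.5, 39.7 and 35.7 FPKM in FFa, KOa and KOb and was not called in KOa (0.43 ± 0.25, q = 0.0671) or KOb (0.28 ± 0.25, q = 0.282). Psmb7, the trypsin-like subunit, had 39.4, 32.1 and 49.3 FPKM and was not called against the control either (q = 0.248 and 0.192). Of the 3 catalytic genes only Psmb5 was thus called in KOa. The Psmb7 ratio there, -0.30 ± 0.25, became 0.24 after rescaling to the FPKM outside globin genes. Of the beta genes without a catalytic site, Psmb2 had 33.5, 30.5 and 49.2 FPKM and rose in KOb by 0.55 ± 0.24 (q = 0.0144). Psmb3 had 40.2, 44.6 and 63.6 FPKM and rose in KOb by 0.66 ± 0.23 (q = 0.00205), with an interferon element match in its window as shown above. Psmb1 (75.7, 79.2 and 77.3 FPKM) and Psmb4 (44.8, 41.8 and 46.8 FPKM) were not called in any comparison.

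The immunoproteasome genes were among the least abundant members and their sum was 16.4 FPKM in FFa, 9.64 in KOa and 12.4 in KOb. Of the 3, none rose and 2 fell in KOa, with a median log2 ratio of -0.68, and 1 fell in KOb, with a median of -0.30. Rescaling to the FPKM outside globin genes moved these medians to -0.15 and 0.21, so the sign in KOb depends on the scale. Psmb8, the partner of Psmb5, had 6.19 FPKM in FFa, 1.98 in KOa and 2.96 in KOb. Both mutants lay well below the control, at 31.9% and 47.8% of it. The log2 ratio was -1.65 ± 0.43 in KOa (q = 0.000619) and -1.07 ± 0.38 in KOb (q = 0.00205), and under the normal reading the adjusted p was 0.00406 and 0.0726. After rescaling the ratios were -1.11 and -0.56.

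Psmb10, the partner of Psmb7, had 7.34, 4.57 and 5.94 FPKM in FFa, KOa and KOb. It fell in KOa by 0.68 ± 0.35 (q = 0.0240) and was not called in KOb (-0.30 ± 0.33, q = 0.358). Psmb9, the partner of Psmb6, had 2.83, 3.09 and 3.49 FPKM and was called in neither (q = 0.850 and 0.592). The immunoproteasome genes are expressed in leukocytes, and the B cell, granulocyte, monocyte and dendritic cell marker sums given above were lower in both mutants, as Psmb8 was. The T and NK cell sum was at 82.8% of the control in KOa and 79.3% in KOb. That sum includes Nkg7, which rose from 3.93 FPKM in FFa to 9.16 in KOa and 10.2 in KOb. Among the tested T and NK cell markers, 2 fell and 1 rose in KOa, and 3 fell and 1 rose in KOb. In the same libraries B cell markers were at 9.07% of the control in KOa and dendritic cell markers at 35.1%, and their part in the fall of Psmb8 was not tested.

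Psmb8 and Psmb9 lie in the MHC region of chromosome 17 beside the peptide transporter genes, in the order Psmb9 (34182099 to 34187330 of mm10), Tap1 (34187556 to 34197225), Psmb8 (34198195 to 34201454) and Tap2 (34204479 to 34216321). Tap1 and Tap2 together encode the transporter that carries peptides into the endoplasmic reticulum. Tap1 had 4.14, 3.37 and 4.97 FPKM in FFa, KOa and KOb and was not called against the control (q = 0.329 and 0.375). Tap2 had 1.35, 1.71 and 2.16 FPKM and was not called either (q = 0.398 and 0.0583). Of these 4 neighbours, Psmb8 was the one that fell in both mutants. Exons of Psmb9 overlap Tap1 on the opposite strand, exons of Psmb8 overlap Gm20496, and no source used here says whether counting used strand.

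Set as a ratio of FPKM, which is per length, Psmb8 stood at 0.473 of Psmb5 in FFa, 0.332 in KOa and 0.167 in KOb. Both mutants lay below the control, with Psmb5 at 5.95 FPKM in KOa and 17.7 in KOb. The log2 ratio of ratios was -0.51 ± 0.60 in KOa and -1.50 ± 0.52 in KOb, from the errors of both genes combined and with no test. Psmb10 stood at 0.186, 0.142 and 0.121 of Psmb7, a change of -0.39 ± 0.43 and -0.63 ± 0.41. Psmb9 stood at 0.0962, 0.0778 and 0.0978 of Psmb6, a change of -0.31 ± 0.54 and 0.02 ± 0.53. The constitutive gene was the more abundant of each pair in all groups, and Psmb8 against Psmb5 in KOb had the one change larger than 2 of its errors. These ratios do not depend on how the groups were scaled.

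**Figure D3:**
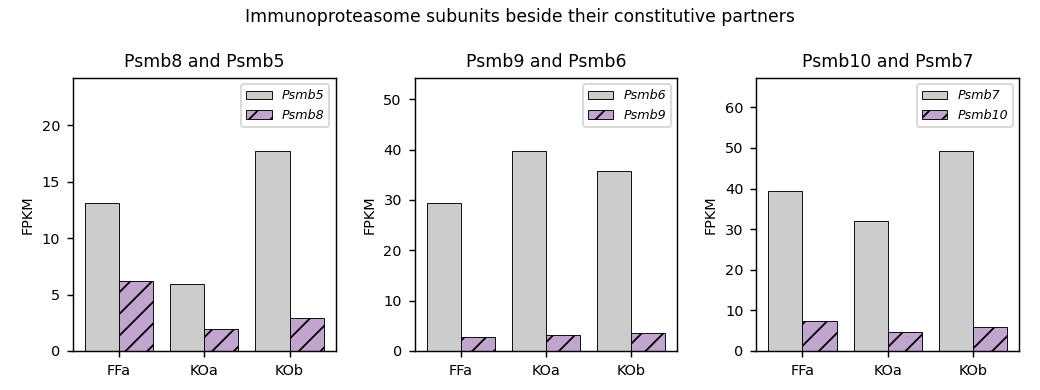
FPKM of each immunoproteasome gene (hatched bars) beside its constitutive partner (grey bars) in FFa, KOa and KOb, 1 panel per pair. Psmb8 over Psmb5 went from 0.473 in FFa to 0.332 in KOa and 0.167 in KOb, while Psmb9 over Psmb6 stayed between 0.0778 and 0.0978.

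The base of the 19S particle holds 6 ATPases that unfold the substrate. Of these 2 rose in KOa and 2 in KOb, none fell, and the median log2 ratio was 0.29 and 0.31. Psmc2 had 28.2 FPKM in FFa, 50.6 in KOa and 38.9 in KOb, with KOa highest. Its log2 ratio was 0.84 ± 0.27 in KOa (q = 0.000619), a 1.79-fold rise, and 0.46 ± 0.27 in KOb (q = 0.0414). Psmc6 had 25.9, 36.2 and 36.9 FPKM, and it rose by 0.48 ± 0.27 in KOa (q = 0.0332) and by 0.51 ± 0.27 in KOb (q = 0.0224). Its window holds the antioxidant core shown above. Psmc1, Psmc3, Psmc4 and Psmc5 were not called in any comparison.

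The other base subunits include the scaffolds that hold ubiquitin receptors and shuttle factors. Psmd1, a scaffold, had 23.0 FPKM in FFa, 36.3 in KOa and 32.7 in KOb. It rose by 0.66 ± 0.29 (q = 0.000619) and by 0.51 ± 0.29 (q = 0.0183). Psmd2, the other scaffold, had 19.6, 32.1 and 27.5 FPKM, and it rose by 0.71 ± 0.30 (q = 0.000619) and by 0.49 ± 0.30 (q = 0.0228). Both were highest in KOa and above the control in KOb. Psmd4, a ubiquitin receptor, had 35.1, 46.1 and 38.8 FPKM and was not called (q = 0.0928 in KOa).

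The lid removes ubiquitin from the substrate. Of its 8 genes 1 rose in KOa and 4 in KOb, none fell, and the median log2 ratio was 0.13 and 0.47. Psmd7, the partner of the deubiquitinase, had 12.1 FPKM in FFa, 17.1 in KOa and 21.9 in KOb. It rose by 0.51 ± 0.29 in KOa (q = 0.040) and by 0.86 ± 0.28 in KOb (q = 0.000619), a 1.82-fold rise. Psmd3 had 21.5, 21.5 and 33.8 FPKM, equal in FFa and KOa, and rose in KOb by 0.66 ± 0.27 (q = 0.000619). Psmd6 had 26.4, 28.9 and 40.5 FPKM and rose in KOb by 0.62 ± 0.26 (q = 0.00548). Psmd12, with the antioxidant core shown above, had 17.4, 21.6 and 25.0 FPKM and rose in KOb by 0.52 ± 0.28 (q = 0.0231). Psmd3, Psmd6 and Psmd12 are structural lid subunits. The deubiquitinase itself, Psmd14, had 39.2, 49.2 and 52.6 FPKM and missed the threshold (q = 0.168 and 0.0650). Psmd8, Psmd11 and Psmd13 were not called in any comparison.

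The 3 chaperones that assemble the base did not move together. Psmd10, known as gankyrin, had 9.69 FPKM in FFa, 16.3 in KOa and 14.0 in KOb. It rose by 0.75 ± 0.34 (q = 0.00161) and by 0.53 ± 0.34 (q = 0.0371). Psmd5 had 22.4, 15.4 and 21.4 FPKM, so that KOa was lowest and KOb near the control. It fell in KOa by 0.54 ± 0.28 (q = 0.0156), a ratio that rescaling to the FPKM outside globin genes brings to -0.0030. Psmd9 had 19.4, 17.8 and 18.0 FPKM and was not called. Over the 19S particle and its chaperones, 6 of 20 genes (30%) rose and 1 (5%) fell in KOa, and 9 (45%) rose and none fell in KOb. Of all tested genes 7.99% rose and 14.1% fell in KOa, and 12.8% rose and 15.2% fell in KOb.

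The activator caps open the core without ATP. Psme1, the PA28 alpha subunit, had 63.7 FPKM in FFa, 109 in KOa and 104 in KOb, both mutants well above the control. It rose by 0.77 ± 0.25 in KOa (q = 0.000619) and by 0.71 ± 0.25 in KOb (q = 0.00115), which is 1.71-fold and 1.63-fold. Psme2, the PA28 beta subunit, had 9.38, 15.1 and 18.1 FPKM and rose by 0.68 ± 0.38 (q = 0.0186) and by 0.95 ± 0.38 (q = 0.000619). PA28 is induced by interferon-gamma like the immunoproteasome subunits, and here Psme1 and Psme2 rose where Psmb8 fell. The interferon element shown above lies in the Psme1 window. Exons of Psme1 overlap Emc9 on the opposite strand, the deposited locus of Psme1 is 3727 bases longer than the RefSeq gene, and a copy of Psme2 (Psme2b) is annotated. Fam158a, the older name of Emc9, had 7.72, 18.9 and 16.5 FPKM in FFa, KOa and KOb and was not called (q = 0.107 and 0.184).

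Psme3, the nuclear PA28 gamma subunit, had 238 FPKM in FFa, 252 in KOa and 155 in KOb. It was the most abundant member in FFa and KOa. It was not called in KOa (0.08 ± 0.29, q = 0.799) and fell in KOb by 0.62 ± 0.29 (q = 0.00479), to 65.3% of the control, or by 0.11 after rescaling to the FPKM outside globin genes. Of the 7 erythroid markers in KOb, 2 fell (Alas2 and Slc4a1), 1 rose (Kit) and 4 were not called. The part of these markers in the Psme3 value was not tested. Psme1 stood at 0.268 of Psme3 in FFa, 0.433 in KOa and 0.669 in KOb, a ratio that does not depend on scaling. Psme4, the PA200 activator, had 5.48, 4.26 and 4.65 FPKM and was not called.

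KOb against KOa compares the mutants with each other. Of 41 members 9 rose and 1 fell, where 10% of 10468 tested genes rose and 6.19% fell, and the median log2 ratio was 0.14 against 0.06 over all genes. The rises lay mostly in the core, with 2 of 7 alpha genes and 4 of 7 constitutive beta genes, and none of 9 base genes was called. Psmb5 led them, from 5.95 FPKM in KOa to 17.7 in KOb (1.57 ± 0.42, q = 0.000619), and its adjusted p was 0.00512 under the normal reading. Psma5 was second, from 2.61 to 6.11 FPKM (1.23 ± 0.41, q = 0.00161). Psmb2 rose by 0.69 ± 0.25 (q = 0.00248), Psma7 by 0.66 ± 0.28 (q = 0.00933), Psmb7 by 0.62 ± 0.25 (q = 0.00513) and Psmb3 by 0.51 ± 0.24 (q = 0.0274). In all of these but Psmb3 the deposited KOa value was below the control and the KOb value above it. After rescaling to the FPKM outside globin genes the KOa ratio to FFa was below 0 for Psmb5 alone (-0.60), and it was 0.0061 for Psma5, 0.15 for Psma7, 0.40 for Psmb2 and 0.24 for Psmb7. Outside the core Psmd3 (0.65 ± 0.28, q = 0.00161), Psmd6 (0.49 ± 0.26, q = 0.0317) and the chaperone gene Psmd5 (0.47 ± 0.28, q = 0.0368) rose. Psme3 fell, by 0.70 ± 0.29 (q = 0.00115). At a q below 0.01, 6 members rose and 1 fell, where 5.32% of tested genes rose and 3.11% fell. With at least 10 FPKM, 8 of 36 rose and 1 fell, where 10.8% and 14.7% did. Under the normal reading, Psma5 and Psmb5 remained and no member fell, where 1.91% of tested genes were higher and 0.793% lower. With recentred ratios 1 remained higher and none lower, where 1.64% and 1.02% of genes were.

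The related lists are short, and their counts stand beside the shares of all tested genes, 7.99% higher and 14.1% lower in KOa and 12.8% and 15.2% in KOb. Assembly of the core depends on dedicated chaperones. Of 6 tested assembly factors and inhibitors 1 rose in KOa, 2 rose and 1 fell in KOb, and between the mutants 3 rose and 1 fell. Pomp, the chaperone that guides the beta ring, had 41.0 FPKM in FFa, 59.2 in KOa and 61.1 in KOb. It rose by 0.53 ± 0.23 (q = 0.0224) and by 0.58 ± 0.23 (q = 0.0127). Psmg2, a chaperone of the alpha ring, had 19.7, 25.8 and 37.1 FPKM and rose in KOb by 0.91 ± 0.26 (q = 0.000619). Psmf1, the PI31 regulator that inhibits the core in vitro, had 44.7, 35.8 and 26.3 FPKM and fell in KOb by 0.76 ± 0.28 (q = 0.000619). Pomp and Psmg2 thus moved up while Psmf1 moved down in KOb.

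Of 10 factors that bind the proteasome, 2 (20%) rose and 1 (10%) fell in each mutant, beside 7.99% and 14.1% of all tested genes in KOa and 12.8% and 15.2% in KOb. Shfm1, a small lid subunit with a symbol outside the Psm series, had 44.1 FPKM in FFa, 22.6 in KOa and 25.8 in KOb. It fell by 0.96 ± 0.22 (q = 0.000619) and by 0.77 ± 0.22 (q = 0.00289), while the called lid genes named above rose. Ube3c, a ubiquitin ligase of the proteasome, had 5.47, 9.27 and 9.10 FPKM and rose by 0.76 ± 0.30 and by 0.73 ± 0.30 (q = 0.000619 in both). Rad23b, a shuttle factor, had 8.34, 8.94 and 13.7 FPKM and rose in KOb by 0.71 ± 0.29 (q = 0.000619). Ubqln2, another shuttle factor, had 3.28, 5.46 and 4.20 FPKM and rose in KOa by 0.74 ± 0.33 (q = 0.00161).

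Of the NFE2L1 and NFE2L2 regulators 2 of 9 tested rose in KOa and none of 8 changed in KOb. Nfe2l1, whose product restores proteasome gene expression when proteasomes are impaired, had 4.50 FPKM in FFa, 6.41 in KOa and 4.54 in KOb. It rose in KOa by 0.51 ± 0.33 (q = 0.0395). Bach1, a repressor at the same kind of site, had 2.02, 3.66 and 2.84 FPKM and rose in KOa by 0.86 ± 0.33 (q = 0.000619). Nfe2l2 had 8.71, 7.69 and 9.44 FPKM and was not called. Of the 7 genes of the VCP segregase, which extracts ubiquitinated proteins, 1 rose in KOa (Ufd1l, 25.0 and 36.0 FPKM, q = 0.0136) and none was called in KOb.

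On the deposited scale the ubiquitin gene Ubb fell in both mutants while the gene of the main activating enzyme rose. Of 5 tested genes 1 rose and 2 fell in KOa, and 1 rose and 1 fell in KOb. Ubb had 364 FPKM in FFa, 237 in KOa and 194 in KOb. It fell by 0.62 ± 0.33 (q = 0.0119) and by 0.91 ± 0.33 (q = 0.000619). Rescaling to the FPKM outside globin genes would add 0.54 to the first of these log2 ratios and 0.51 to the second. Rps27a, which encodes a fusion of ubiquitin and a ribosomal protein, had 131, 72.0 and 136 FPKM and fell in KOa by 0.86 ± 0.22 (q = 0.000619). Uba1, the activating enzyme, had 35.4, 58.0 and 51.3 FPKM and rose by 0.71 ± 0.30 (q = 0.000619) and by 0.53 ± 0.30 (q = 0.0141).

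Among 12 genes of MHC class I presentation, which use the peptides of the immunoproteasome, none rose and 1 fell in KOa and 2 rose and none fell in KOb. B2m, the light chain, had 494 FPKM in FFa, 636 in KOa and 771 in KOb. It rose in KOb by 0.64 ± 0.24 (q = 0.00479). Canx, a chaperone of the heavy chain, had 20.8, 17.1 and 28.8 FPKM and rose in KOb by 0.47 ± 0.30 (q = 0.0307). Erap1, the peptide trimming enzyme, had 3.37, 2.22 and 3.18 FPKM and fell in KOa by 0.60 ± 0.34 (q = 0.0220).

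Of 10 interferon signalling genes that lead to the immunoproteasome genes, 1 (10%) fell in KOa, and 2 (20%) rose and 2 fell in KOb, shares near the 14.1% lower in KOa and the 12.8% higher and 15.2% lower in KOb over all tested genes. Irf8, which is also a marker in the dendritic cell list, had 7.16 FPKM in FFa, 0.964 in KOa and 0.614 in KOb. It fell by 2.89 ± 0.42 and by 3.54 ± 0.49 (q = 0.000619 in both). The receptor chain gene Ifngr1 had 10.1, 9.73 and 18.1 FPKM and rose in KOb by 0.85 ± 0.29 (q = 0.000619). Ifngr2 had 1.31, 2.05 and 2.38 FPKM and rose in KOb by 0.86 ± 0.45 (q = 0.0250). Ifnar2 had 33.2, 25.8 and 19.01 FPKM and fell in KOb by 0.81 ± 0.35 (q = 0.000619).

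**Figure D4:**
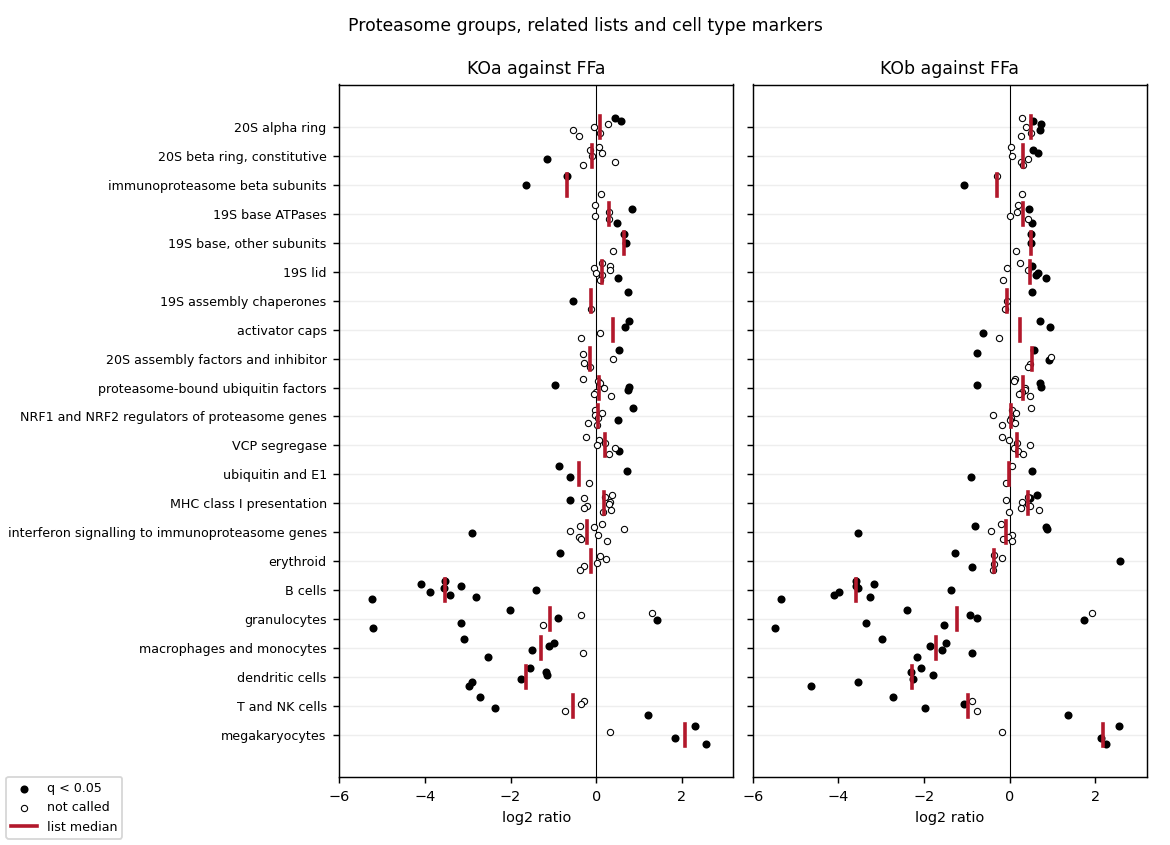
Deposited log2 ratios of single genes in the proteasome roles, the related lists and the cell type markers, for KOa against FFa and KOb against FFa, with filled points for q below 0.05 and a bar at the list median. The proteasome roles lay within about 1 log2 unit of 0 apart from Psmb5 and Psmb8, whereas the B cell markers lay between -5.35 and -1.37.

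Several members share sequence with other annotated genes. Exons of 11 members overlap a gene of the opposite strand and those of 2 overlap a gene of the same strand, and 4 have a named pseudogene or copy. The deposited loci of Psma3, Psma6 and Psme1 are over 1000 bases longer than their RefSeq genes, by 14606 and 177596 bases for Psma3 and Psma6, so their values may cover neighbouring transcripts.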

How the data were processed

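Libraries were made from total RNA of sorted cells, per the labels' protocols. The submitters' processing notes name Cuffdiff 2.1.1, TopHat2 2.0.8b, Bowtie2 2.1.0 and the build mm10. No source used here gives the annotation, strand use or scaling. The authors deposited 1 FPKM value per gene and group, with the 3 libraries of a group pooled, and the deposited log2 ratio was made without a pseudocount. Its test score (statistic), p-value and q-value were also deposited. Recomputing showed that q is the Benjamini-Hochberg adjustment over 31813 tested results of all 3 comparisons. The smallest deposited p is 5e-05, shared by 2570 results, and corresponds to a q of 0.000619.

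Folds, sums, medians, ratios and implied standard errors were computed here with Python 3.11.15 and pandas 2.3.3. Only the adjustment and call steps were tested on simulated data, with normal statistics and planted changes larger than those of the members. Medians used genes with at least 1 FPKM in either group. The alternatives were a q threshold of 0.01, the statistic taken as standard normal, adjustment within a comparison, at least 10 FPKM, log2 of FPKM plus 1, recentring, rescaling to the FPKM outside globin genes (for single genes added after seeing the data), and leaving out the immunoproteasome genes. All members could be named, in full where called, catalytic or an activator cap, and called genes of the related lists. The members and lists were chosen with earlier results of these data known. Paaf1, Hba-a1, Hbb-b1, Ly6g and Adgre1 were not matched as single symbols and not analysed here. Some genes of the related and marker lists are not reported here and were left out of the list counts.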

Additional observations from a re-analysis of the deposited data

Results flagged for a closer look

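Among the 10 members called between the mutants, 6 had log2 ratios to the shared control of opposite sign in KOa and KOb. The same held for 893 of 1685 genes called between the mutants (53.0%), so the count is near that of all genes and says nothing particular of the members. The KOb over KOa log2 ratio was 1.57 for Psmb5, 1.23 for Psma5, 0.69 for Psmb2, 0.66 for Psma7, 0.62 for Psmb7 and -0.70 for Psme3. For the first 5 the KOa value was below FFa and the KOb value above it, and for Psme3 the reverse, on the deposited scale. Rescaling to the FPKM outside globin genes made the KOa ratios of Psma5, Psma7, Psmb2 and Psmb7 positive, and Psmb5 (-0.60 in KOa) and Psme3 (-0.11 in KOb) kept opposite signs. The difference tested is the deposited comparison of KOb with KOa. Psmb5 in KOa and Psma5, Psmb2 and Psme3 in KOb were also called against FFa. The TER119 gate differs between these groups together with the degree of deletion, and the 2 cannot be told apart.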

How the results depend on the processing

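Leaving out a library was not possible, since only group values were used. No paired analysis was possible because the table holds group values and no value per numbered library. In KOa the 10 higher members became 6 at a q of 0.01 and 2 under the normal reading of the statistic, recentred or not. The 4 lower became 2 at a q of 0.01 and with at least 10 FPKM, and 1 under the normal reading, recentred or not. In KOb the 16 higher became 8 at a q of 0.01 and 1 under the normal reading, recentred or not, and the 2 lower became 1 with at least 10 FPKM and 0 under the normal reading, recentred or not. Between the mutants the 9 higher became 2 under the normal reading and 1 after recentring, and the 1 lower became 0. Rescaling to the FPKM outside globin genes moved the members' median to 0.66 in KOa and 0.89 in KOb. It shifts all genes by the same amount, so the members' distance from the median of all genes stays as deposited. With 1 added to each FPKM, Psmb9 over Psmb6 in FFa was 0.126. Signs turned for Nfe2l1 in KOb after recentring (-0.0032) and for Psmc6 between the mutants after recentring (-0.018). Rescaling turned 17 of the 153 single-gene ratios (13 in KOa, 4 in KOb), among them the uncalled KOa ratios of Psma5 (0.0061), Psma7 (0.15), Psmb2 (0.40) and Psmb7 (0.24), and none that was called. Of the same 153, 65 were no longer called under the normal reading and none changed call or sign with log2 of FPKM plus 1. The cause of these changes was not tested.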
